A study of Mus musculus with 12 samples.

Results

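The genes of the mitochondrial genome were taken as all genes of the expression table whose name starts with mt-. These were 37 of the 49585 genes listed. They comprised 2 ribosomal RNAs, 22 transfer RNAs and 13 messenger RNAs, and all 37 were found. The mitochondrial genome is a small circle of DNA inside the organelle. It is read as long precursors from both strands, one called the heavy-strand and the other the light-strand transcript. The precursors are cut into rRNAs, mRNAs and tRNAs, largely at the tRNAs that lie between the other genes. Its mRNAs encode core subunits of respiratory complexes I, III and IV and of the ATP synthase, and its rRNAs and tRNAs serve the ribosome that translates them. Macrophages given LPS and IFN-γ are known to turn from respiration towards glycolysis.

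RAW264.7 cells were used throughout, an established mouse line with macrophage properties, derived from a virus-induced tumour. All 12 libraries came from cells given 10 ng/mL LPS, a bacterial ligand of Toll-like receptor signalling, and 10 ng/mL mouse IFN-γ. The 4 groups of 3 libraries were 96 h with 50 µM Mdivi-1, 96 h without Mdivi-1, 24 h with 50 µM Mdivi-1 and 24 h without Mdivi-1. Mdivi-1, which is used to block Drp1, the GTPase that divides mitochondria, was started together with the stimuli. Unstimulated cells were not analysed here, and the labels do not name a vehicle. Libraries are called by the number in their label, and values of a group are given in the order of the numbers 1, 2 and 3. All levels are in TPM, a gene's length-corrected share of all transcripts of its library, which moves when other RNAs move. In these bulk samples, fewer cells of a type and less RNA per cell cannot be told apart.

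The product of TPM and gene length was a whole multiple of 1 constant per library for all 37 genes in every library, within 0.01 of a read. Of the values of other genes checked with the same constants, 75.9% to 82.4% were whole in a library. This gave the number of reads behind each value of the 37 genes. The totals came to 3886209 to 4581055 assigned reads at 96 h with Mdivi-1 and 2607018 to 8336626 at 96 h without it. At 24 h they came to 13958968 to 14855434 reads with Mdivi-1 and 11824662 to 15826644 without it. Any common factor that divides all read numbers of a library would stay unseen, and the totals include the other genes, so they are approximate. The 9 macrophage markers found of 10, such as Lyz2 and Cd68, summed to 257 to 392 TPM at 96 h, 28.8 to 44.5 TPM in both 24 h libraries of number 3 and 18449 to 20765 TPM in 24 h libraries 1 and 2. In both number 3 libraries 3 of the 9 markers were above 1 TPM, against all 9 in the others, and none was at 0 throughout. The 9 fibroblast markers summed to 2.46 to 11.9 TPM at 96 h, 0.803 to 1.58 TPM in 24 h number 3 and 56.2 to 294 TPM in 24 h libraries 1 and 2. The T cell, B cell and epithelial lists each summed to at most 8.09 TPM in every library. A list of 1454 olfactory-type receptor genes had a median of 1.27, 1.36 and 1.85 TPM with Mdivi-1 and 2.68, 2.09 and 0.498 TPM without it at 96 h. At 24 h their median was 0 TPM in libraries 1 and 2 of both groups, 0.113 TPM in number 3 with Mdivi-1 and 0.364 TPM in number 3 without it. The part of these differences in the results below was not tested. Both 24 h libraries of number 3 stand apart by the very measure described here. Each result is therefore given with all 12 libraries and, where it differs, without those 2 libraries, a choice made with earlier results of these data known. Since that measure is itself tested, a call between times without them is no independent support.

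The tRNAs on which the later results turn are shown as DNA from the GENCODE M21 transcripts (mouse build GRCm38), written 5′ to 3′ along the tRNA, with the anticodon in capitals. mt-Tp, the proline tRNA, was the highest tRNA in every library. mt-Tg for glycine and mt-Tt for threonine followed it in mean level. mt-Ty for tyrosine and mt-Tc for cysteine, chosen after their values were seen, had lower levels at 96 h than in 24 h libraries 1 and 2 in most libraries, and mt-Td for aspartate had no read anywhere.
mt-Tp: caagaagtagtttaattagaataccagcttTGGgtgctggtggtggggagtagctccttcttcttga
mt-Tg: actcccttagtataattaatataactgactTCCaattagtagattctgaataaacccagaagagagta
mt-Tt: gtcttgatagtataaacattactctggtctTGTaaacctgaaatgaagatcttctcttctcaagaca
mt-Ty: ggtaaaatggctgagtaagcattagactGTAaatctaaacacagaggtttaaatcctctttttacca
mt-Tc: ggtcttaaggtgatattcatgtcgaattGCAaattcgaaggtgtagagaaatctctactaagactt
mt-Td: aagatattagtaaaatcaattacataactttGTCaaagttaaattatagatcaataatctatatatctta
mt-Tp, mt-Ty and mt-Tc are read in the light-strand transcript, and mt-Tg, mt-Tt and mt-Td in the heavy-strand transcript.

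Neighbouring mitochondrial genes can share bases. The end of mt-Atp8 and the start of mt-Atp6 share 43 bases, shown with the start codon of mt-Atp6 in capitals. mt-Nd5 and mt-Nd6 share 14 bases but are read from opposite strands, shown along the strand of mt-Nd5.
mt-Atp8 and mt-Atp6 overlap: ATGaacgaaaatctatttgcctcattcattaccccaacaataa
mt-Nd5 and mt-Nd6 overlap: ttaatctcgagtaa
Reads in such a shared stretch cannot be given to 1 of the genes by position alone. The library kit keeps the strand, but whether the counting used it is not given in the sources used here. If it did not, reads of mt-Nd6 and of the light-strand tRNAs cannot be told from antisense RNA of the other strand.

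Mitochondrial rRNA made up most of the RNA at 96 h and little of it in 24 h libraries 1 and 2. The libraries had been depleted of rRNA with a commercial kit, so the values are what was left after that step, whose part in the result was not tested. The rRNA share of the TPM total was 64.0, 61.4 and 64.2% with Mdivi-1 and 53.1, 55.9 and 74.2% without it at 96 h. At 24 h the rRNA share was 4.09, 4.56 and 90.8% with Mdivi-1 and 3.68, 3.37 and 91.6% without it. The 24 h libraries of number 3 had the highest shares of all 12, and numbers 1 and 2 the lowest, so the times overlap.

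**Figure D1:**
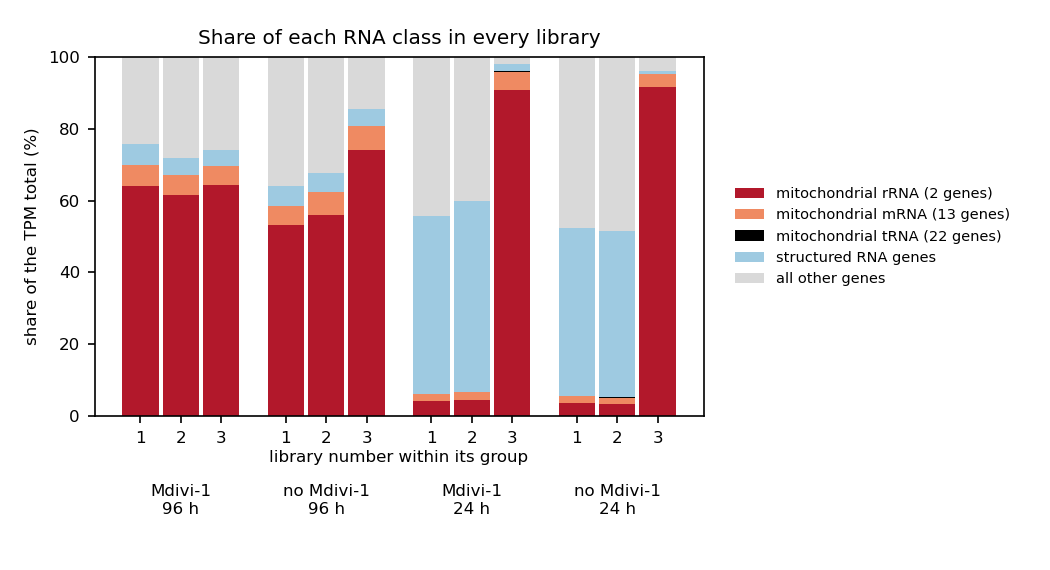
Stacked bars give the share (%) of the TPM total held by mitochondrial rRNA, mRNA and tRNA, by nuclear genes for structured RNA (such as 7SL) and by all other genes, for each of 12 libraries. Mitochondrial rRNA takes 53.1% to 74.2% at 96 h, 3.37% to 4.56% in 24 h libraries 1 and 2, and 90.8% and 91.6% in number 3.

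The share of mitochondrial mRNA was 5.903, 5.64 and 5.49% with Mdivi-1 and 5.38, 6.41 and 6.54% without it at 96 h. At 24 h the mRNA share was 2.12, 2.09 and 5.07% with Mdivi-1 and 1.82, 1.79 and 3.503% without it. Every 96 h library lay above every 24 h library, including number 3. The tRNA share was far smaller, at 0.0891, 0.0662 and 0.0605% with Mdivi-1 and 0.0911, 0.128 and 0.0452% without it at 96 h. At 24 h the tRNA share was 0.0345, 0.0311 and 0.0721% with Mdivi-1 and 0.0352, 0.0413 and 0.0727% without it. The tRNA shares of the 2 times overlapped, and the lowest at 96 h, in library 3 without Mdivi-1, lay below both 24 h libraries of number 3. Structured RNA genes held 4.36% to 5.87% at 96 h, 46.4% to 53.1% in 24 h libraries 1 and 2, and 2.20% and 0.919% in number 3 with and without Mdivi-1.

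These shares were compared by an exact permutation test on log2 values, two-sided, with times exchanged within each treatment or treatments within each time. With all 12 libraries the smallest p it can give is 0.005, and p-values were adjusted by Benjamini-Hochberg over the 16 tests (8 measures, 2 contrasts). The mRNA share was higher at 96 h by a log2 difference of 1.01 with Mdivi-1 and 1.43 without it (exact permutation p = 0.005, adjusted p = 0.0267). The rRNA share differed by 2.41 and 2.53 in the same direction and did not pass (exact permutation p = 0.08, adjusted p = 0.18). Without both 24 h number 3 libraries, the smallest p for time is 0.01, and both shares passed at it, with a mean log2 difference of 3.99 for rRNA and 1.59 for mRNA (exact permutation, adjusted p = 0.0229 each). Those 2 were left out for their rRNA share, the highest of all 12, so the rRNA pass is no independent support. Neither share passed for Mdivi-1, with log2 differences for rRNA of 0.07 at 96 h and 0.19 at 24 h (exact permutation p = 0.52) and for mRNA of -0.10 at 96 h and 0.33 at 24 h (exact permutation p = 0.6). At 24 h the mRNA share was higher with Mdivi-1 in each of the 3 pairs of the same number. The test with the number as a block joined both times, so it does not test these 24 h pairs alone. It did not pass (exact permutation, adjusted p = 0.65). Leaving out single libraries moved the mean rRNA difference for Mdivi-1 between -0.60 (without 24 h number 3 with Mdivi-1) and 0.91 (without 24 h number 3 that had none). It also turned below 0 without 24 h library 1 or 2 that had no Mdivi-1, at -0.25 and -0.28. The call of the mRNA share for time was lost without any 1 of 5 of the 96 h libraries, at adjusted p of 0.0533 to 0.08, and held without library 3 at 96 h that had no Mdivi-1.

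The 2 rRNAs are the 12S RNA of the small and the 16S RNA of the large subunit of the mitochondrial ribosome. mt-Rnr1 (ENSMUSG00000064337), the 12S rRNA gene, had 366782, 337566 and 348539 TPM with Mdivi-1 and 297231, 315283 and 417083 TPM without it at 96 h. At 24 h mt-Rnr1 had 11691, 14365 and 471543 TPM with Mdivi-1 and 10315, 9838 and 478701 TPM without it. The 24 h libraries of number 3 exceeded every 96 h library, and numbers 1 and 2 were far below. mt-Rnr2 (ENSMUSG00000064339), the 16S rRNA gene, had 273257, 276778 and 293708 TPM with Mdivi-1 and 233895, 244023 and 324928 TPM without it at 96 h. At 24 h mt-Rnr2 had 29221, 31190.3 and 436885 TPM with Mdivi-1 and 26534, 23841 and 437692 TPM without it. The order of the libraries was like that of mt-Rnr1, but the contrast was smaller.

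Between 96 h and 24 h, mt-Rnr1 was called higher, by log2 changes of 3.03 ± 1.04 with Mdivi-1 and 3.22 ± 1.04 without it (limma, SE, n = 3 libraries a group, adjusted p = 0.0285 and 0.0302). Each SE and p-value of limma, here and below, is moderated, resting on the spread of the gene and of genes of like level. The call of mt-Rnr1 thus does not rest on its own spread alone, and its 24 h number 3 libraries exceeded every 96 h library. mt-Rnr2 gave 1.93 ± 0.77 and 2.02 ± 0.77 and did not pass (limma adjusted p = 0.0585 and 0.0518). Both rRNAs, once both 24 h number 3 libraries were left out, passed in either treatment, with 4.76 ± 0.94 and 5.07 ± 0.94 for mt-Rnr1 and 3.22 ± 1.05 and 3.40 ± 1.05 for mt-Rnr2 (limma, with and without Mdivi-1).

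The 2 rRNAs changed places in TPM. Both are what the rRNA depletion left, and its part in their ratio was not tested. In reads, without length correction, mt-Rnr2 stayed above mt-Rnr1, with 9374140 against 7183342 summed over the 96 h libraries. mt-Rnr2 was 0.745, 0.8199 and 0.843 times mt-Rnr1 with Mdivi-1 and 0.787, 0.774 and 0.779 times mt-Rnr1 without it at 96 h. At 24 h mt-Rnr2 was 2.499, 2.17 and 0.927 times mt-Rnr1 with Mdivi-1 and 2.57, 2.42 and 0.914 times mt-Rnr1 without it. In TPM the 16S rRNA thus exceeded the 12S rRNA only in 24 h libraries 1 and 2, while number 3 resembled the 96 h libraries. All 96 h ratios lay below all 24 h ratios, and the log2 difference was -1.10 with Mdivi-1 and -1.20 without it (exact permutation p = 0.005, adjusted p = 0.0267). Leaving out both number 3 libraries gave a mean of -1.61 (adjusted p = 0.0229). The call was lost without any 1 of the 6 libraries of 96 h (adjusted p = 0.08 to 0.1), with the difference between -1.39 and -1.01. Mdivi-1 shifted the ratio by 0.04 at 96 h and -0.06 at 24 h on the log2 scale (exact permutation p = 0.905).

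The ratio of rRNA to mRNA was 10.8, 10.9 and 11.7 with Mdivi-1 and 9.86, 8.72 and 11.4 without it at 96 h. At 24 h this ratio was 1.93, 2.18 and 17.9 with Mdivi-1 and 2.02, 1.88 and 26.2 without it. At 96 h it spanned a narrow range, whereas the 24 h libraries held both the lowest and the highest values. Over all 12 libraries the log2 difference between times, 1.40 with Mdivi-1 and 1.10 without it, did not pass (exact permutation p = 0.09, adjusted p = 0.18). It passed at a mean of 2.40 without both number 3 libraries (adjusted p = 0.0229). For Mdivi-1 the difference was 0.17 at 96 h and -0.14 at 24 h and did not pass (exact permutation p = 0.945).

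**Figure D2:**
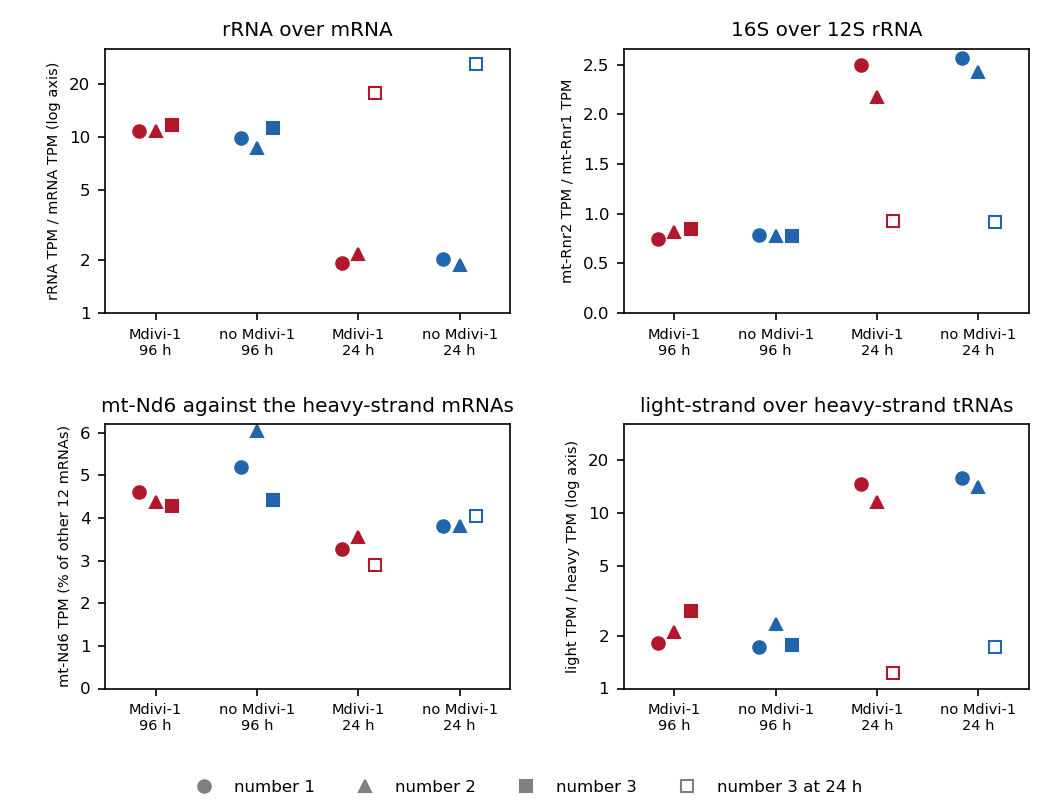
Points are libraries in 4 groups, with the shape giving the library number and open squares the 24 h libraries of number 3. The panels give the TPM of rRNA over mRNA (log axis), of mt-Rnr2 over mt-Rnr1, of mt-Nd6 in percent of the other 12 mRNAs, and of light-strand over heavy-strand tRNAs (log axis). mt-Rnr2 over mt-Rnr1 is 0.745 to 0.843 at 96 h, 0.914 and 0.927 in 24 h number 3 and 2.17 to 2.57 in 24 h libraries 1 and 2.

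Most of the 13 mRNAs rose at 96 h when both number 3 libraries were left out, and few of them passed with all 12. Because limma moderates the spread of a gene towards that of genes of like level, a missing call does not measure the gene's own spread. In the fit of all 12 libraries, 1 mRNA passed with Mdivi-1 (mt-Co1) and 2 without it (mt-Co1 and mt-Atp6), all higher at 96 h. Over all 37 genes, 35 were tested, and 4 were called with Mdivi-1 and 5 without it, while of all genes tested 31.8% were called with Mdivi-1 and 28.3% without it. Higher calls made up 31.6% and 27.9% of all genes, and lower calls 0.204% and 0.379%. With both number 3 libraries left out, 20 of 34 genes were called with Mdivi-1 and 24 without it, against 79.4% and 83.2% of all genes. Among these, 10 mRNAs were higher at 96 h with Mdivi-1 and all 13 without it, against higher calls for 35.3% and 36.3% of all genes tested. There the median log2 change of the 13 mRNAs was 0.995 with Mdivi-1 and 1.41 without it, beside -0.12 and -0.41 over all genes tested. With TPM rescaled to genes that are neither mitochondrial nor structured RNA, in the same libraries, the mRNA medians were 1.69 and 2.32, beside 1.61 and 1.54 over all genes. The distance of the mRNA median from that of all genes was smaller on the rescaled values. Rescaling multiplies all genes of a library by the same factor. The distance therefore depends on the 1 added to TPM and on which genes pass the filter, and is no result about the mRNAs. With all 12 libraries and TPM rescaled without rRNA, tRNA and structured RNA, only 8 of the 13 were above 0 with Mdivi-1.

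**Figure D3:**
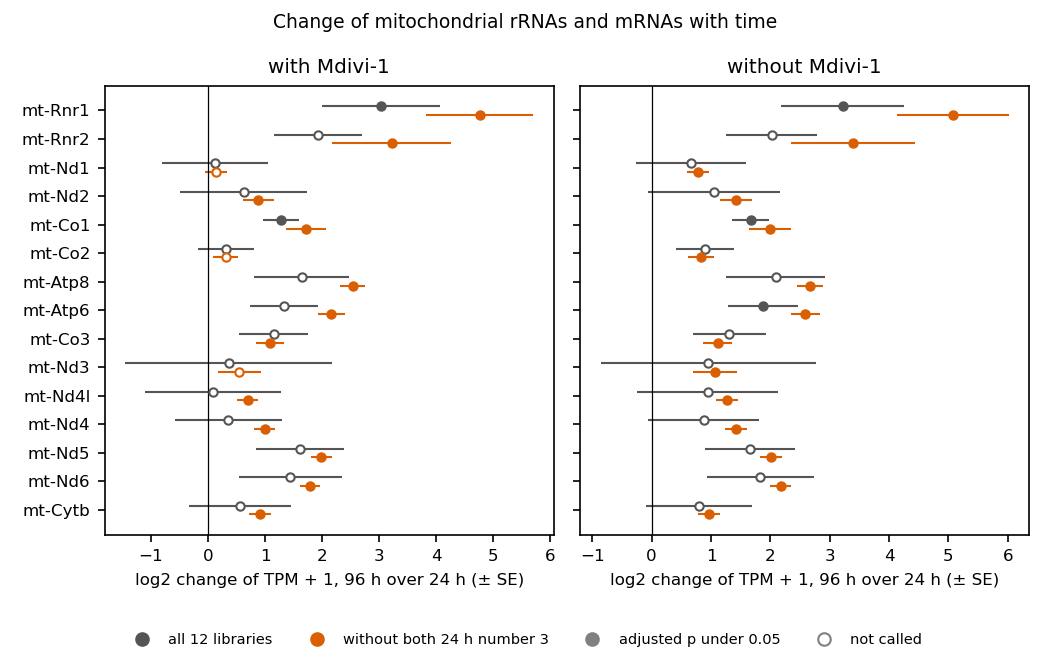
Points give the log2 change of TPM + 1, 96 h over 24 h, with its moderated SE, for 2 rRNAs and 13 mRNAs in genome order, with Mdivi-1 on the left and without it on the right. Filled points passed an adjusted p of 0.05. The 12-library fit in grey calls mt-Rnr1 and mt-Co1 in both panels and mt-Atp6 in the right one, and the fit without both 24 h number 3 libraries in orange calls all 15 without Mdivi-1.

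The mRNAs of complex IV, cytochrome c oxidase, were among the highest. mt-Co1 (ENSMUSG00000064351), its catalytic subunit 1, had 21359, 20690.1 and 20166 TPM with Mdivi-1 and 17718, 19475 and 24009.9 TPM without it at 96 h. At 24 h mt-Co1 had 6348, 6264 and 15622 TPM with Mdivi-1 and 5153, 4979.6 and 9966 TPM without it. Every 96 h library lay above every 24 h library, and mt-Co1 was the highest mRNA in all 12. mt-Co2 (ENSMUSG00000064354), subunit 2, which takes electrons from cytochrome c, had 4815, 4325 and 4098 TPM with Mdivi-1 and 4805, 5537 and 5431 TPM without it at 96 h. At 24 h mt-Co2 had 3586, 3491 and 3568 TPM with Mdivi-1 and 2928, 2957 and 2551 TPM without it. The times did not overlap, and the 24 h libraries of number 3 lay near or below numbers 1 and 2. mt-Co3 (ENSMUSG00000064358), subunit 3, had 5187, 4735 and 4592 TPM with Mdivi-1 and 3314, 3813 and 5312 TPM without it at 96 h. At 24 h mt-Co3 had 2284, 2254 and 2005 TPM with Mdivi-1 and 1975, 1783 and 1245 TPM without it. Number 3 lay below the other 24 h libraries of its group for mt-Co3, and all 24 h libraries lay below those of 96 h. mt-Co1 rose by a log2 change of 1.28 ± 0.31 with Mdivi-1 and 1.67 ± 0.31 without it (limma adjusted p = 0.0175 and 0.0292). With all 12 libraries mt-Co2 and mt-Co3 did not pass in either treatment, although their times did not overlap. The moderated spread includes that of other genes, so these missing calls do not show a wide spread of mt-Co2 or mt-Co3. Without both number 3 libraries, mt-Co3 rose in both treatments, by 1.09 ± 0.24 with Mdivi-1 and 1.11 ± 0.24 without it, and mt-Co2 without Mdivi-1, by 0.83 ± 0.22.

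The ATP synthase mRNAs overlap and are carried on 1 transcript. mt-Atp6 (ENSMUSG00000064357), the subunit of the proton channel, had 8393, 9109 and 9203 TPM with Mdivi-1 and 9473, 11213 and 12071 TPM without it at 96 h. At 24 h mt-Atp6 had 1985, 1979 and 11149 TPM with Mdivi-1 and 1835, 1774 and 8067 TPM without it. The 24 h library of number 3 with Mdivi-1 reached into the 96 h range, and numbers 1 and 2 lay several times lower. mt-Atp8 (ENSMUSG00000064356), a small subunit of the membrane part, had 4872, 3818 and 3912 TPM with Mdivi-1 and 3516, 4183 and 5335 TPM without it at 96 h. At 24 h mt-Atp8 had 743, 690.1 and 4664 TPM with Mdivi-1 and 636, 714 and 2249 TPM without it. Number 3 at 24 h with Mdivi-1 lay within the 96 h range, number 3 without it below that range, and numbers 1 and 2 lowest. mt-Atp6 rose by 1.87 ± 0.59 on the log2 scale without Mdivi-1 (limma adjusted p = 0.0294), while with Mdivi-1 it gave 1.33 ± 0.59 (adjusted p = 0.0913). The changes of mt-Atp6 were 2.17 ± 0.24 with Mdivi-1 and 2.59 ± 0.24 without it when both number 3 libraries were left out. Those of mt-Atp8 were 2.54 ± 0.22 and 2.67 ± 0.22, the largest among the mRNAs in that fit.

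Complex III has 1 mitochondrial mRNA. mt-Cytb (ENSMUSG00000064370), cytochrome b, had 2026, 1872 and 1752 TPM with Mdivi-1 and 2009.6, 2462 and 1650.1 TPM without it at 96 h. At 24 h mt-Cytb had 972, 1021 and 2057 TPM with Mdivi-1 and 1019.9, 1037 and 1464 TPM without it. The 24 h library of number 3 with Mdivi-1 overlapped the 96 h range, and mt-Cytb passed only without both number 3 libraries, at 0.92 ± 0.19 with Mdivi-1 and 0.97 ± 0.19 without it.

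Of complex I, NADH dehydrogenase, 7 subunits are mitochondrial. mt-Nd1 (ENSMUSG00000064341), a core subunit near the ubiquinone site, had 1458, 1440.3 and 1369.9 TPM with Mdivi-1 and 1689, 2212 and 1459 TPM without it at 96 h. At 24 h mt-Nd1 had 1296, 1284 and 1323 TPM with Mdivi-1 and 1036, 1002 and 1318 TPM without it. The 96 h libraries lay above those of 24 h, without overlap. mt-Nd2 (ENSMUSG00000064345), a membrane subunit, had 1294, 1203 and 1155 TPM with Mdivi-1 and 1659, 2229 and 998 TPM without it at 96 h. At 24 h mt-Nd2 had 674, 643 and 1122 TPM with Mdivi-1 and 567, 588 and 1248 TPM without it. Library 3 without Mdivi-1 was the lowest at 96 h and the highest at 24 h. mt-Nd3 (ENSMUSG00000064360), a small membrane subunit, had 332, 375 and 252 TPM with Mdivi-1 and 501, 796 and 252 TPM without it at 96 h. At 24 h mt-Nd3 had 205, 225 and 319 TPM with Mdivi-1 and 210.1, 236 and 278 TPM without it. mt-Nd3 was the lowest mRNA in all 12 libraries, and its times overlapped. mt-Nd4l (ENSMUSG00000065947), a small membrane subunit whose gene overlaps that of mt-Nd4, had 1048, 959 and 917 TPM with Mdivi-1 and 1164, 1571 and 1006 TPM without it at 96 h. At 24 h mt-Nd4l had 595, 605 and 2102 TPM with Mdivi-1 and 528, 492 and 996 TPM without it. The 24 h library of number 3 with Mdivi-1 was the highest of all 12. mt-Nd4 (ENSMUSG00000064363), a proton-pumping subunit, had 1922, 1810.2 and 1643 TPM with Mdivi-1 and 2017, 2596 and 1763 TPM without it at 96 h. At 24 h mt-Nd4 had 931, 863 and 3359 TPM with Mdivi-1 and 777, 795 and 2403 TPM without it. As for mt-Nd4l, number 3 at 24 h with Mdivi-1 stood highest. mt-Nd5 (ENSMUSG00000064367), another proton-pumping subunit, had 3722, 3701 and 3611 TPM with Mdivi-1 and 3312, 4373 and 3304 TPM without it at 96 h. At 24 h mt-Nd5 had 956, 896 and 2021 TPM with Mdivi-1 and 893, 904 and 1886 TPM without it. Here the times did not overlap, and number 3 lay between numbers 1 and 2 and the 96 h libraries. In the fit without both number 3 libraries these 6 mRNAs rose at 96 h without Mdivi-1, by 0.79 (mt-Nd1) to 2.01 (mt-Nd5) on the log2 scale. With Mdivi-1, mt-Nd1 (0.14 ± 0.19) and mt-Nd3 (0.55 ± 0.37) did not pass there, nor did mt-Co2 (0.32 ± 0.22).

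mt-Nd6 is the only mRNA of the light-strand transcript. mt-Nd6 (ENSMUSG00000064368), a membrane subunit of complex I, had 2605, 2367 and 2256 TPM with Mdivi-1 and 2663, 3657 and 2775 TPM without it at 96 h. At 24 h mt-Nd6 had 672, 721 and 1428 TPM with Mdivi-1 and 671, 659.8 and 1360.5 TPM without it. The times did not overlap, and all 96 h libraries were the higher. In the 12-library fit mt-Nd6 gave log2 changes of 1.44 ± 0.90 with Mdivi-1 and 1.83 ± 0.90 without it, not called, and without both number 3 libraries 1.79 ± 0.18 and 2.17 ± 0.18, called (limma).

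Relative to the 12 heavy-strand mRNAs together, mt-Nd6 stood at 4.62, 4.38 and 4.28% with Mdivi-1 and 5.204, 6.05 and 4.43% without it at 96 h. At 24 h mt-Nd6 stood at 3.27, 3.56 and 2.896% with Mdivi-1 and 3.82, 3.82 and 4.04% without it. The ratio was higher in every 96 h library than in every 24 h library, number 3 included. Time changed it by log2 differences of 0.45 with Mdivi-1 and 0.41 without it (exact permutation p = 0.005, adjusted p = 0.0267), and by a mean of 0.41 without both number 3 libraries (adjusted p = 0.0229). Mdivi-1 went with a lower ratio at both times, by -0.23 at 96 h and -0.27 at 24 h (exact permutation p = 0.01, adjusted p = 0.04). All 3 libraries with Mdivi-1 lay below all 3 without it at 24 h, while at 96 h library 1 with Mdivi-1 lay above library 3 without it. The mean without both number 3 libraries was -0.20 and no longer passed (adjusted p = 0.0667). With the library number as a block within each time, the difference was -0.25 (exact permutation p = 0.0312, the smallest that test can give, adjusted p = 0.25). Adjusted over the 8 measures, a measure that alone reaches this smallest p cannot pass, so the block test cannot decide the call. Leaving out 1 library ended the call for time and that for Mdivi-1 in 8 of 12 cases each, namely all 24 h libraries without Mdivi-1 and every 96 h library but number 3 without Mdivi-1 (adjusted p = 0.0533 to 0.08 for time, and 0.0533 to 0.1 for Mdivi-1).

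The make-up of the mRNA pool was described by shares, with no test. As a share of the TPM of all 13 mRNAs, mt-Co1 held 36.2, 36.7 and 36.7% with Mdivi-1 and 32.9, 30.4 and 36.7% without it at 96 h. At 24 h mt-Co1 held 29.9, 29.9 and 30.8% with Mdivi-1 and 28.3, 27.8 and 28.4% without it. It was always the leading mRNA, but its share at 96 h overlapped that at 24 h. mt-Co2 held 8.16, 7.67 and 7.46% with Mdivi-1 and 8.92, 8.63 and 8.31% without it at 96 h. At 24 h mt-Co2 held 16.9, 16.7 and 7.03% with Mdivi-1 and 16.1, 16.5 and 7.28% without it. It took about the share of the 96 h libraries in number 3 at 24 h, and more in numbers 1 and 2. mt-Atp6 held 14.2, 16.1 and 16.8% with Mdivi-1 and 17.6, 17.5 and 18.5% without it at 96 h. At 24 h mt-Atp6 held 9.34, 9.45 and 21.97% with Mdivi-1 and 10.1, 9.897 and 23.03% without it. It ran the other way, lowest in 24 h libraries 1 and 2 and highest in number 3.

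**Figure D4:**
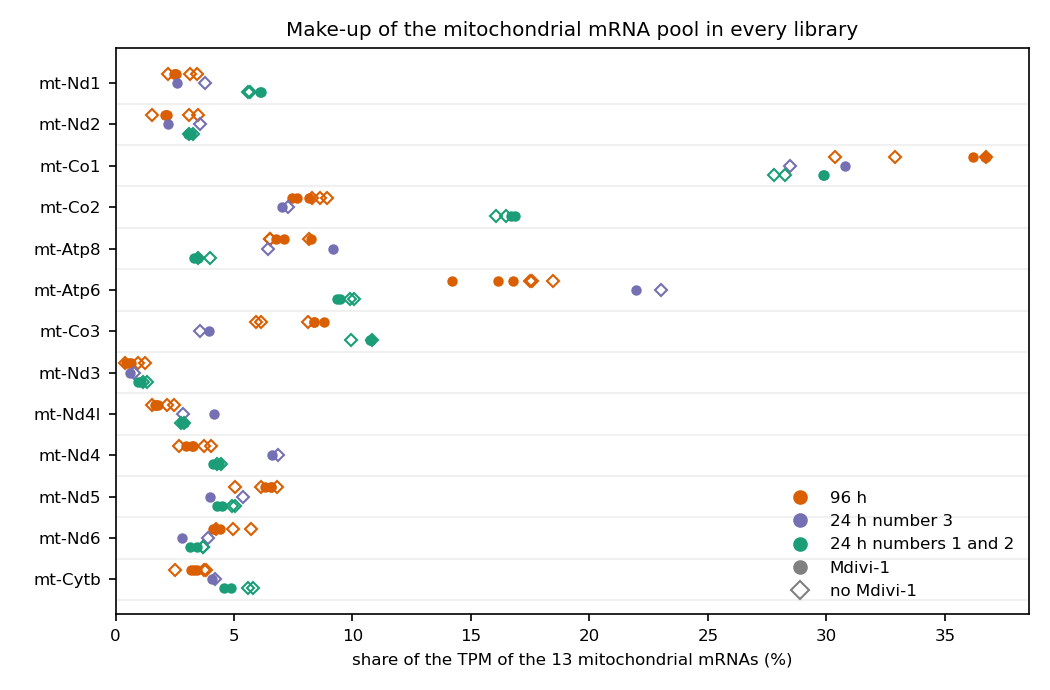
Points give the share (%) of the TPM of all 13 mitochondrial mRNAs held by each, in genome order, for every library, with colours for 96 h, 24 h number 3 and 24 h numbers 1 and 2 and with filled circles for Mdivi-1. mt-Co1 leads with 27.8% to 36.7%, and mt-Co2 holds 7.46% to 8.92% at 96 h, 7.03% and 7.28% in 24 h number 3 and 16.1% to 16.9% in 24 h libraries 1 and 2.

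Several of these mRNAs have near copies in the nuclear genome. Of the 50-base windows of each gene, all 635 of mt-Co2 and 97.99% to 99.9% of those of mt-Atp6, mt-Co3, mt-Nd3 and mt-Nd4l also occur in a nuclear transcript of GENCODE M21. For mt-Nd4 the share was 62.2%, for mt-Co1 51.1%, for mt-Nd2 8.19%, for mt-Nd5 7.61% and for mt-Rnr2 1.04%, and it was 0 for mt-Nd1, mt-Atp8, mt-Nd6, mt-Cytb, mt-Rnr1 and all tRNAs. How reads that fit both were counted is not given in the sources used here, so levels of the genes with copies are uncertain. The 14 nuclear genes concerned took at most 0.124% of the TPM total in any library.

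The tRNAs were measured with few reads, 123 to 221 a library at 96 h and 153 to 625 at 24 h, so their values carry counting error that the mRNAs do not. In each library 3 to 10 of the 22 tRNAs had no read. The tRNA genes are 59 to 75 bases long, and how well RNA this short was captured was not tested. Whether the reads came from mature tRNAs or from precursors was not tested either, so tRNA levels and their ratios to mRNA describe these reads only. mt-Tp (ENSMUSG00000064372), the proline tRNA, had 472, 361 and 391 TPM with Mdivi-1 and 442, 643 and 247 TPM without it at 96 h. At 24 h mt-Tp had 194, 149 and 302 TPM with Mdivi-1 and 173, 209 and 365 TPM without it. It was the highest tRNA in all 12, with 41.9% to 64.6% of the tRNA total. Its times overlapped through number 3 at 24 h and library 3 at 96 h without Mdivi-1, and it passed only without both number 3 libraries, with log2 changes of 1.25 ± 0.32 with Mdivi-1 and 1.12 ± 0.32 without it (limma adjusted p = 0.00532 and 0.0090).

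mt-Tg, the glycine tRNA, lies between mt-Co3 and mt-Nd3 and was the second highest by mean. mt-Tg (ENSMUSG00000064359), the glycine tRNA, had 136, 88.8 and 68.3 TPM with Mdivi-1 and 107, 101 and 38.3 TPM without it at 96 h. At 24 h mt-Tg had 0, 0 and 149 TPM with Mdivi-1 and 0, 0 and 97.3 TPM without it. The 96 h libraries had 14 to 34 reads and number 3 at 24 h 84 and 121, while all 4 of the 24 h libraries 1 and 2 had 0, which allows up to 4.68 to 6.82 TPM a library (3 reads, counting error only). The mean at 96 h, 90.0 TPM, was at least 15.7-fold higher than the mean limit of these 4 libraries, 5.74 TPM. In the 12-library fit mt-Tg was not called for time (adjusted p = 0.215 with Mdivi-1 and 0.230 without it), and without both number 3 libraries it was. mt-Tt, next to mt-Tp on the opposite strand, behaved in a like way. mt-Tt (ENSMUSG00000064371), the threonine tRNA, had 61.1, 56.9 and 44.5 TPM with Mdivi-1 and 72.5, 116 and 59.5 TPM without it at 96 h. At 24 h mt-Tt had 3.66, 11.1 and 54.9 TPM with Mdivi-1 and 4.61, 2.05 and 63.5 TPM without it. It had 9 to 26 reads at 96 h, 44 and 54 in number 3 at 24 h and 1 to 7 in 24 h libraries 1 and 2. mt-Tt passed without both number 3 libraries, at 2.87 ± 0.40 with Mdivi-1 and 4.28 ± 0.40 without it.

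mt-Ty and mt-Tc, neighbours just before mt-Co1 and read in the light-strand transcript, had few reads at 96 h. mt-Ty (ENSMUSG00000064350), the tyrosine tRNA, had 4.07, 0 and 0 TPM with Mdivi-1 and 0, 12.9 and 2.29 TPM without it at 96 h. At 24 h mt-Ty had 62.3, 60.1 and 16.2 TPM with Mdivi-1 and 94.6, 98.2 and 12.9 TPM without it. It had 0 to 2 reads in each 96 h library, 13 and 11 in 24 h number 3 with and without Mdivi-1, and 34 to 48 in 24 h libraries 1 and 2. mt-Ty fell by a log2 change of -4.56 ± 1.66 with Mdivi-1 (limma adjusted p = 0.0381), and gave -3.83 ± 1.66 without it (adjusted p = 0.0878). Without both number 3 libraries it fell in both treatments, by -5.18 ± 0.95 with Mdivi-1 and -4.77 ± 0.95 without it. mt-Tc (ENSMUSG00000064349), the cysteine tRNA, had 0, 4.82 and 10.05 TPM with Mdivi-1 and 14.7, 52.2 and 4.65 TPM without it at 96 h. At 24 h mt-Tc had 20.5, 20.9 and 13.9 TPM with Mdivi-1 and 30.4, 33.2 and 14.3 TPM without it. mt-Tc overlapped between times without Mdivi-1, and it fell in 1 contrast only, with Mdivi-1 and without both number 3 libraries (-2.44 ± 0.98, adjusted p = 0.0411).

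The other tRNAs called in the 12-library fit rest on few reads. mt-Tf, the phenylalanine tRNA, was called higher at 96 h without Mdivi-1 in the 12-library fit, but had 1 read each in libraries 1 and 2 of that group and 0 in the other 10 libraries. mt-Tl1, a leucine tRNA that lies behind mt-Rnr2, was called lower there, with 0 reads in that group and 1, 3 and 1 in the 24 h group without Mdivi-1. mt-Tv, the valine tRNA between both rRNA genes, was called higher with Mdivi-1 in the same fit, with 5, 2 and 1 reads at 96 h and 0, 0 and 3 at 24 h. mt-Td had 0 reads in all 12 libraries and mt-Ts1, a serine tRNA, 2 reads in 1 library, so both stayed below the filter of a mean of 1 TPM. The remaining 12 tRNAs had means of 3.05 (mt-Tm) to 36.5 TPM (mt-Ta). mt-Tr, an arginine tRNA, was under the filter without both number 3 libraries. Of the 12, mt-Ti, the isoleucine tRNA, was higher at 96 h in both treatments without both number 3 libraries, mt-Tl2 and mt-Tn without Mdivi-1 and mt-Tw with it. Over the 96 h libraries without Mdivi-1, mt-Ti had 20 reads in all, mt-Tl2 34 and mt-Tn 25, and mt-Tw had 5 over those with Mdivi-1.

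**Figure D5:**
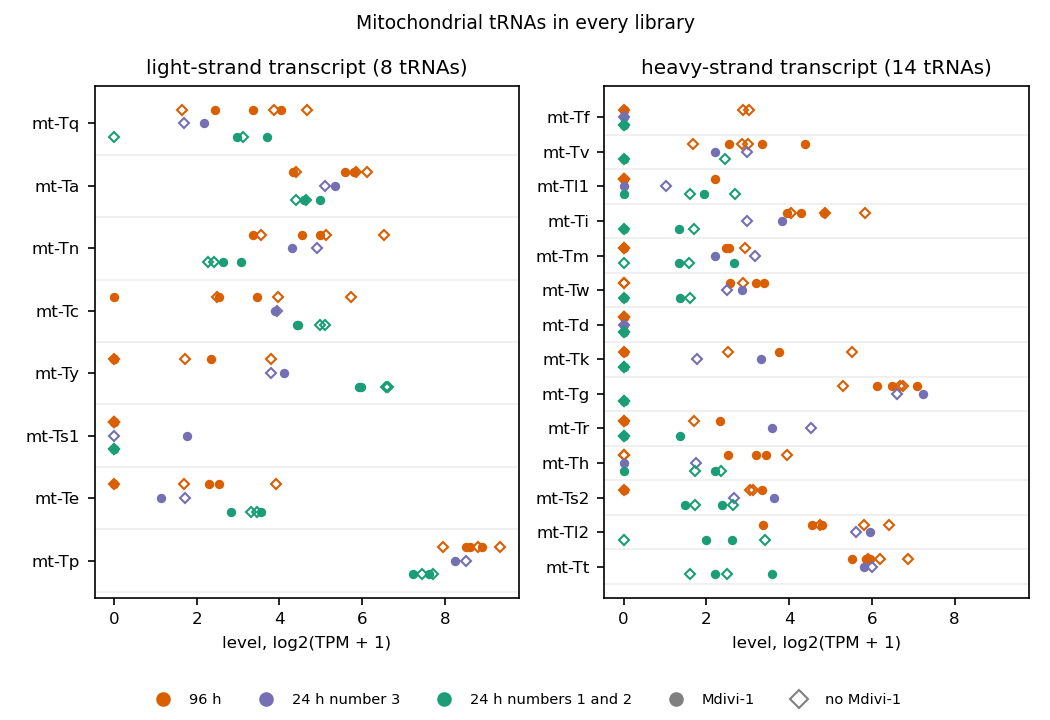
Points give log2(TPM + 1) of each tRNA in every library, with the 8 tRNAs of the light-strand transcript on the left and the 14 of the heavy-strand transcript on the right, in genome order. mt-Tp is highest throughout, mt-Tg is at 0 in 24 h libraries 1 and 2 only, and mt-Ty is highest in them.

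The 8 light-strand tRNAs together exceeded the 14 heavy-strand tRNAs in every library. The ratio of their TPM was 1.81, 2.09 and 2.76 with Mdivi-1 and 1.71, 2.32 and 1.78 without it at 96 h. At 24 h the tRNA ratio was 14.7, 11.5 and 1.23 with Mdivi-1 and 15.8, 13.95 and 1.71 without it. It was high in 24 h libraries 1 and 2 alone, where the light-strand tRNAs had 144 to 189 reads a library and the heavy-strand tRNAs 9 to 16. The log2 difference between times was -1.44 with Mdivi-1 and -1.92 without it and did not pass with all 12 libraries (exact permutation p = 0.075, adjusted p = 0.18). It passed at a mean of -2.76 without both number 3 libraries (adjusted p = 0.0229), and at -2.24 without 24 h number 3 with Mdivi-1 alone (adjusted p = 0.048). Relative to mRNA, tRNA stood at 1.51, 1.17 and 1.101% with Mdivi-1 and 1.69, 1.99 and 0.692% without it at 96 h. At 24 h tRNA stood at 1.62, 1.49 and 1.42% with Mdivi-1 and 1.93, 2.31 and 2.08% without it. The times overlapped, and number 3 at 24 h lay within or just below the range of its group. The difference between times, -0.27 with Mdivi-1 and -0.66 without it, did not pass after adjustment (exact permutation p = 0.035, adjusted p = 0.112). For Mdivi-1, tRNA to mRNA gave a log2 difference of -0.09 at 96 h, where the groups overlapped, and -0.48 at 24 h, where all 3 libraries with Mdivi-1 lay below all 3 without it, and it did not pass (exact permutation p = 0.295, adjusted p = 0.524). The 24 h difference was -0.44, again without overlap, when both number 3 libraries were left out. Leaving out 96 h library 3 without Mdivi-1 alone gave a mean of -0.52 that passed (adjusted p = 0.04). The tRNA strand ratio gave 0.19 at 96 h and -0.29 at 24 h for Mdivi-1 and did not pass (exact permutation p = 0.845).

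Mdivi-1 was not seen to change the level of any mitochondrial gene. Of the 35 genes tested, limma called 0 at 96 h, 0 at 24 h and 0 for the difference of both effects, with 2, 0 and 3 at an unadjusted p under 0.05. Over all genes the same fit called 19 genes or 0.108% at 96 h, 0% at 24 h and 0% for the difference, with 284, 15 and 123 genes at an unadjusted p under 0.05. With both number 3 libraries left out, the counts were again 0 for the 34 genes tested, beside 0.143% of all genes at 96 h, 0.295% at 24 h and 0.122% for the difference. The 13 mRNAs gave log2 changes with Mdivi-1 of -0.56 (mt-Nd3) to 0.25 (mt-Co3) at 96 h, with a median of -0.25, and 3 of them were above 0. At 24 h they gave 0.03 (mt-Nd3) to 0.52 (mt-Nd4l), with a median of 0.25, and all 13 were above 0. Over all genes the medians were -0.06 and -0.18. Moderated standard errors of single mRNAs were 0.31 (mt-Co1) to 1.81 (mt-Nd3) in this fit, which is larger than the change for 12 of the 13 mRNAs at 24 h and for all 13 at 96 h. These errors draw on the spread of other genes of like level, so they do not measure how far the mRNAs themselves varied.

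Nuclear genes for subunits of the same complexes did not follow the mitochondrial mRNAs. The mean TPM of the mitochondrial mRNAs was divided by the mean TPM of 72 nuclear subunit genes. This ratio was 475, 446 and 415 with Mdivi-1 and 464, 514 and 409.6 without it at 96 h. At 24 h the ratio was 22.2, 21.8 and 5919 with Mdivi-1 and 17.96, 17.8 and 3072 without it. Number 3 at 24 h lay highest, the 96 h libraries between, and numbers 1 and 2 lowest. The nuclear mean itself was 8.93 to 12.3 TPM at 96 h and 73.6 to 78.1 TPM in 24 h libraries 1 and 2. In number 3 it was 0.659 TPM with Mdivi-1 and 0.877 TPM without it, so those ratios rest on a divisor below 1 TPM. By complex, the ratio was highest for complex IV at 96 h, at 652 to 855, and 104 to 218 for complex III, 232 to 422 for complex I and 450 to 508 for the ATP synthase. In 24 h libraries 1 and 2 these ratios were 20.9 to 27.8 for complex IV, 13.7 to 14.6 for complex III, 12.9 to 15.3 for complex I and 13.7 to 16.2 for the ATP synthase. The nuclear subunits fell over time without both number 3 libraries. All 10 genes of complex IV and all 9 of complex III were lower at 96 h in both treatments, 15 of 16 of the ATP synthase in both, and of 37 for complex I, 37 with Mdivi-1 and 36 without it. Lower calls made up 44% of all genes tested with Mdivi-1 and 46.9% without it, and with all 12 libraries 0 of the 72 were called.

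Against all genes that are neither mitochondrial nor structured RNA, mitochondrial mRNA stood at 24.5, 20.1 and 21.2% with Mdivi-1 and 15.04, 19.8 and 44.9% without it at 96 h. At 24 h mitochondrial mRNA stood at 4.81, 5.21 and 279% with Mdivi-1 and 3.82, 3.699 and 90.6% without it. Number 3 exceeded every other library and numbers 1 and 2 were the lowest, so the times overlap. The log2 difference of 0.19 with Mdivi-1 and 1.13 without it did not pass with all 12 libraries (exact permutation p = 0.635, adjusted p = 0.8), and a mean of 2.39 passed without both number 3 libraries (adjusted p = 0.0229). For Mdivi-1 it was -0.12 at 96 h and 0.82 at 24 h and did not pass (exact permutation p = 0.65).

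Genes of the nucleus that make and process mitochondrial RNA were lower at 96 h in many cases, when both number 3 libraries were left out. Of these, 14 of 20 genes for transcription and replication of the mitochondrial genome were lower at 96 h in both treatments, and 19 of 21 for RNA processing and decay. Of 19 for RNA modification, 16 were lower with Mdivi-1 and 17 without it. In the same fit 44% of all genes tested were lower with Mdivi-1 and 46.9% without it. None of the machinery genes on these lists was higher, and with all 12 libraries limma called 0 of them. Their median log2 changes were -1.20, -1.96 and -1.42 with Mdivi-1 and -1.26, -2.11 and -1.45 without it, beside -0.12 and -0.41 over all genes tested. A fall was not particular to these lists. The 9 macrophage markers summed to 257 to 392 TPM at 96 h and 18449 to 20765 TPM in 24 h libraries 1 and 2. The fibroblast markers were also lower at 96 h than there, while the T cell, B cell and epithelial lists, at most 8.09 TPM, were higher. The largest was Hsd17b10, a subunit of mitochondrial RNase P, the enzyme that cuts the 5′ ends of tRNAs. Hsd17b10 had 1.26, 2.204 and 1.02 TPM with Mdivi-1 and 0.374, 1.33 and 2.72 TPM without it at 96 h. At 24 h Hsd17b10 had 32.2, 28.99 and 0.451 TPM with Mdivi-1 and 33.3, 28.4 and 0.303 TPM without it. It was low at 96 h and in number 3 at 24 h and high in numbers 1 and 2, with log2 changes of -3.69 ± 0.35 and -3.80 ± 0.35 with and without Mdivi-1. Mrpl12, a ribosomal protein that also binds the mitochondrial RNA polymerase, had log2 changes of -2.79 ± 0.22 with Mdivi-1 and -2.73 ± 0.22 without it. Rexo2, an exonuclease for short RNAs, had -2.63 ± 0.17 and -2.49 ± 0.17. Slirp, a partner of Lrpprc that stabilises mitochondrial mRNAs, had -2.50 ± 0.25 and -2.67 ± 0.25, and Pnpt1, the mitochondrial polynucleotide phosphorylase, had -2.46 ± 0.22 and -2.77 ± 0.22. Grsf1, which binds light-strand RNAs in mitochondrial RNA granules, had -2.54 ± 0.16 and -2.32 ± 0.16, and Ptcd2, needed for mt-Cytb mRNA processing in mice, had -2.39 ± 0.22 and -2.74 ± 0.22.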

How the data were processed

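RNA was sequenced after rRNA depletion of 100 ng total RNA with a stranded kit, per the labels' protocols. The authors deposited 1 table of TPM values for 12 libraries; for the aligner, counter, annotation and counting strand nothing is stated (not given in the sources used here). One build, hg19, is named by the submitters' processing notes, and it is human, but 49326 of the 49585 gene identifiers (99.5%) are in the mouse annotation GENCODE M21, so no coordinates are printed. All 12 value columns were matched to samples by title. Reads behind a value were recovered as TPM times GENCODE M21 length. Levels were tested with limma 3.58.1 (R 4.3.3) on log2(TPM + 1), so folds of low genes are understated, for 17668 genes with a mean of at least 1 TPM, in 1 model of 4 groups with Benjamini-Hochberg adjustment and an adjusted p under 0.05. Without both 24 h libraries of number 3, 19631 genes were tested. Ratios were compared by exact two-sided permutation tests (400 regroupings, or 100 for time and 120 for Mdivi-1 without number 3). The tests were checked on simulated data. Deviations from the group means correlated between same-numbered libraries of both treatments at 24 h (0.968, 0.960 and 0.980), where numbers 1 and 2 also correlated with each other (0.969 and 0.961) and number 3 inversely with both (-0.976 to -0.968), but not at 96 h (-0.123, -0.025 and -0.257). These values set number 3 apart in both treatments at 24 h, as a hint from the data and not from the labels. They do not show a pairing of numbers 1 and 2. The limma p-values and SEs use a spread moderated towards a trend with mean level over all genes tested (eBayes with trend). They therefore reflect the spread of other genes as well as that of the gene named. Since no label says that replicates were separate cultures, all p-values rest on spread among these libraries, which may be technical.

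Values in every library are given for the rRNAs, every mRNA called in either fit, and the 3 tRNAs with the highest mean; mt-Td, mt-Ts1 and mt-Tf are those with the lowest. mt-Ty, mt-Tc, mt-Tl1 and mt-Tv were added after their values were seen. Machinery genes were named when called and at a mean TPM of 5 or more, at most 6 per contrast by size of change. The members and lists were chosen with earlier results of these data known. Intervals and limits from read numbers cover counting error only. The alternatives were other filters, pseudocounts and scalings, read mass, a replicate block and leaving out libraries.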

Additional observations from a re-analysis of the deposited data

How the results depend on the processing

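Of the 37 genes, the number called for time depended on the processing. For 96 h against 24 h without Mdivi-1, where 5 were called, a filter of at least 5 TPM, a pseudocount of 10, rescaling without rRNA, tRNA and structured RNA, and median-of-ratios scaling each gave 0, and the contrast's own libraries alone gave 3. With Mdivi-1, where 4 were called, the same 4 settings gave 0, 0, 1 and 0. Without both 24 h libraries of number 3 the counts were 24 without Mdivi-1 and 20 with it, beside 83.2% and 79.4% of all genes tested. With all 12 libraries 28.3% and 31.8% of all genes were called. Shares over all genes are not given here for the other settings, so those counts are no result about these genes. Added to that, rescaling gave 23 and 18, median-of-ratios 25 and 26, and rescaling to genes neither mitochondrial nor structured 25 and 19, all 3 chosen after seeing the data. Leaving out 1 library gave 0 to 15 without Mdivi-1 and 0 to 10 with it, 0 for Mdivi-1 at 24 h, and 0 to 1 for Mdivi-1 at 96 h and for the difference of both effects. For time, 24 h library 1 or 2 with Mdivi-1 left out gave 0 in both treatments, and 24 h library 1 or 2 without Mdivi-1, or 96 h library 1 or 2 without it, gave 0 without Mdivi-1. Number 3 at 24 h with Mdivi-1 left out gave 11 without Mdivi-1 and 10 with it, number 3 at 24 h without Mdivi-1 15 and 8, and 96 h library 3 with Mdivi-1 6 and 1. Each single call for Mdivi-1 at 96 h and for the difference of effects came without library 3 at 96 h that had no Mdivi-1. Without both number 3 libraries, 4 log2 differences between times newly passed, namely 3.99 for the rRNA share, 2.40 for rRNA to mRNA, -2.76 for light-strand to heavy-strand tRNA and 2.39 for mitochondrial to other mRNA. The Mdivi-1 difference of the mt-Nd6 ratio was -0.20 there and no longer passed. With a replicate block it was -0.25, at the smallest p of that test, which cannot pass alone after adjustment. With read mass in place of TPM, the Mdivi-1 difference of rRNA to mRNA turned to -0.0045.

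Leaving out 1 library moved the log2 differences for time between 2.06 and 3.25 (rRNA share), 1.11 and 1.43 (mRNA share), 0.92 and 1.87 (rRNA to mRNA), -0.61 and -0.23 (tRNA to mRNA), -1.39 and -1.01 (mt-Rnr2 to mt-Rnr1), 0.38 and 0.49 (mt-Nd6 to other mRNAs), -2.24 and -1.35 (tRNA strands), and 0.16 and 1.63 (mitochondrial to other mRNA). For Mdivi-1 the same ranges were -0.60 to 0.91, -0.10 to 0.27, -0.51 to 0.64, -0.52 to -0.14, -0.25 to 0.21, -0.31 to -0.19, -0.57 to 0.51, and -0.62 to 1.11.

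With the replicate block, 0 of the 37 genes were called for Mdivi-1 at either time or for the difference of effects, with all 12 libraries or without both number 3 libraries. Over the ratios and shares for Mdivi-1 the block changed only the call of the mt-Nd6 ratio, whose p was the smallest that test can give. No block was fitted for the time contrasts, and no fit of its own libraries for the difference of effects. The low read numbers limit the tRNAs most.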
